A study of Mus musculus with 22 samples.

Results

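The genes described here encode the proteins that load, dock and fuse synaptic vesicles, together with their relatives on other membranes. They were chosen by symbol from the deposited expression table: every numbered synaptotagmin (Syt), syntaxin (Stx), syntaxin binding protein (Stxbp), vesicle-associated membrane protein (Vamp), Snap and complexin (Cplx) gene, together with the synapsins Syn1, Syn2 and Syn3, Sv2a, Sv2b and Sv2c, and Rab3a, Rab3b, Rab3c and Rab3d. This gave 60 of the 17306 genes in the table, namely 16 Syt, 14 Stx, 7 Stxbp, 6 Vamp, 5 Snap, 4 Rab3, 3 Sv2, 3 Syn and 2 Cplx genes. All 60 passed the filter on low values and were tested.

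RNA was sequenced from the lumbar spinal cord (L4-L6) of 22 male wildtype C57BL6J mice aged 12-14 weeks at collection. Per the study, the tissue was the dorsal horn quadrant on the side of the injected knee and not the whole cord. All mice had received 1 mg of monoiodoacetate (MIA) in the knee joint, an inhibitor of glycolysis that produces a model of osteoarthritic pain, and no mice without MIA are among the samples analysed here. SAFit2, a small molecule that blocks the stress-related chaperone partner FKBP51, was given at 100 mg/kg in a slow-release phospholipid gel, and Vehicle mice received the gel alone. The groups were Early SAFit2 (n = 5), Early Vehicle (n = 6), Late SAFit2 (n = 5) and Late Vehicle (n = 6). Early mice received gel on days -3 and 4 from MIA according to the methods, while the protocol label reads days 3 and 4, and Late mice on days 20 and 27. Tissue was taken on day 30. Sample titles in the Early SAFit2 group say SAFit1, but the treatment field says SAFit2, and the field was followed. The labels also give Early and Late as the 2 batches, so the late and the early SAFit2 comparison each lie within a batch. The early minus late difference and the mean of both timings draw on both batches.

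In release of neurotransmitter, a Vamp protein on the vesicle and a syntaxin with Snap25 on the plasma membrane wind into a tight bundle, the SNARE complex, which pulls the membranes together. Complexins clamp the partly wound bundle, and synaptotagmins sense the calcium that triggers fusion. Synapsins tether vesicles in reserve, Sv2 proteins sit in the vesicle membrane, and Rab3 GTPases recruit vesicles to the release site. In spinal cord this machinery serves both the excitatory and the inhibitory terminals that shape pain signalling. The same families hold members that work in the endosome, Golgi and other cells, and Snap91, included by its symbol, is an adaptor of clathrin coats and not a SNARE.

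Libraries held between 11352989 and 24433349 reads on genes, and correlations between libraries were between 0.92 and 0.987. Values are log2 CPM, where CPM is the number of reads on a gene scaled by a library size that the authors had adjusted. Adjusted over counted size, relative to the geometric mean of all libraries, was 0.7742 to 0.9465 in Late SAFit2 mice. In Late Vehicle mice it was 0.9017 to 1.035. Neuron markers were detected throughout (15 of 15), with a summed level between 6441 and 14121 CPM. In bulk tissue, fewer cells of a type and less RNA per cell cannot be told apart. Some libraries stood apart in markers of other cells. Late SAFit2 mouse 2 had 231 CPM for the summed Schwann cell and ganglion markers (lowest of 22). Late SAFit2 mice 3 and 5 had 197 and 144 CPM of skeletal muscle markers, against 2.19 to 9.48 CPM in all others. Early Vehicle mice 4 and 5 had 31627 and 33354 CPM of oligodendrocyte markers, against 15403 to 24419 CPM in all others. The part of these differences in the results below was not tested, except that each library was also left out in turn.

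Level per length spanned a wide range, and some of the neuronal release genes were at its top. On the scale of log2 CPM per kilobase of exon, averaged over the 22 mice, the highest levels were those of Snap25 (8.77), Cplx1 (8.57), Syt11 (7.92) and Rab3a (7.55). Syt11 is a synaptotagmin that does not bind calcium, and its level was above that of the calcium sensors Syt1 (5.30) and Syt2 (3.55). Among syntaxins the endosomal Stx12 (5.38) was highest, above the plasma membrane syntaxin Stx4a (4.93). The neuronal Stx1a was at 2.89. Vamp1 (6.61) and Vamp2 (6.38), the vesicle SNAREs of neurons, were close on this scale, as were Syn1 (6.65) and Sv2a (6.53). For the Vamp genes this depends on the length used. All exons of Vamp1 cover 10167 bases and its longest protein-coding transcript 3011, against 3809 and 2205 for Vamp2. Per length of that transcript Vamp1 would lie further above Vamp2. The lowest levels were those of Stx11 (-3.75), Syt14 (-3.45), Syt15 (-1.79) and Syt17 (-1.57). Stx11, a syntaxin of immune cells, had 0 to 15 reads per library and 0 reads in 6 libraries, and Syt14 had 4 to 53 reads.

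**Figure D1:**
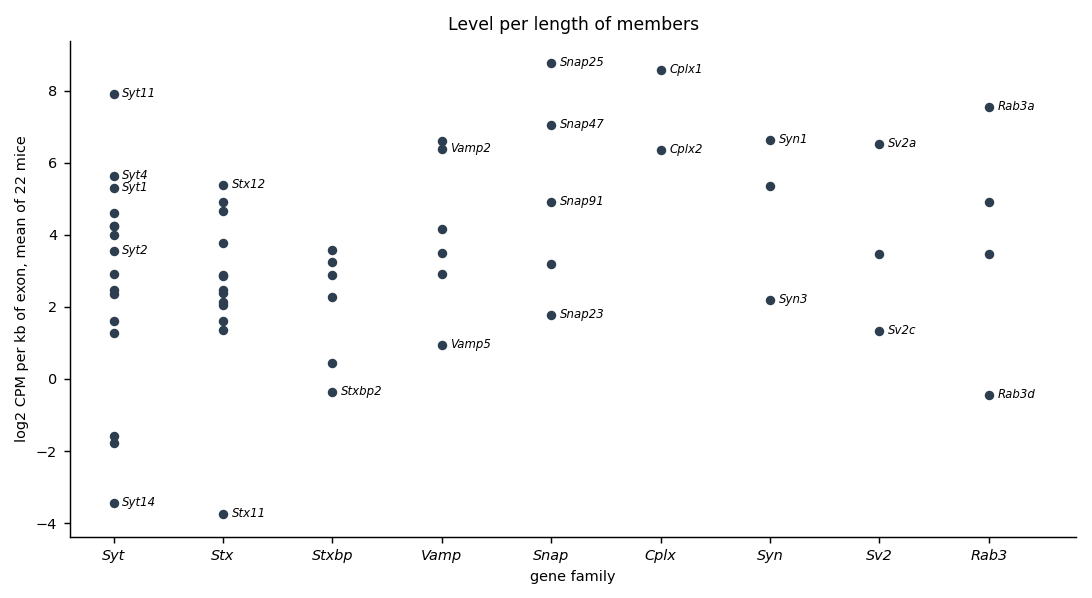
Level of the members by family (2 are left out), on the y axis as log2 CPM per kb of exon averaged over 22 mice; each point is 1 gene and selected genes are named. Snap25 (8.77) and Cplx1 (8.57) lie at the top and Stx11 (-3.75) at the bottom.

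Spread between mice of a group also differed strongly among members. The pooled SD within groups, on the log2 CPM scale, was smallest for Syn2 (0.109), Stx18 (0.126) and Rab3b (0.130). It was largest for Stx11 (1.026), Sv2c (0.920), Syt10 (0.821), Syt14 (0.739) and Syt2 (0.725). Stx11 and Syt14 had few reads, but Syt2 had at least 316 reads in every library. Such spread limits what can be detected. With 5 and 6 mice, the limma standard error of the late difference was 0.09 for Syn2 and 0.37 for Syt2. Limma also draws on the spread of other genes, so these errors do not follow from the SDs alone.

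The first comparison asked whether SAFit2 given once pain was established left these genes at another level than Vehicle. Against Late Vehicle, Late SAFit2 mice had more Stxbp6 and less Syt3 RNA, and these 2 of 60 members passed the threshold (adjusted p under 0.05 over all genes tested and a change of at least 1.2-fold). Over all genes tested 12.1% passed, so the members' share of 3.33% was below the background (1 higher, against 5.33%, and 1 lower, against 6.72%). At a nominal p under 0.05 the members counted 19 of 60, against 34.5% of all genes tested, with 12 higher (background 15.6%) and 7 lower (background 19%). The median log2 fold change of the members was -0.026, beside -0.048 over all genes tested.

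Stxbp6 encodes amisyn, which carries a SNARE motif of the Vamp type and binds syntaxin in place of Vamp. Its log2 CPM was 5.77, 6.23, 6.06, 6.39 and 6.57 in the Late SAFit2 mice, and from 5.49 to 6.15 with a median of 5.67 in Late Vehicle mice. All 5 SAFit2 mice lay above the Vehicle mean, but the lowest SAFit2 mouse was below the highest Vehicle mouse, so that the groups overlapped. The difference was 0.49 (SE 0.13, 1.40-fold, limma adjusted p = 0.0341). A two-sided exact permutation test over all splits of the 11 mice gave an unadjusted p of 0.0216. In early mice the means were 6.06 in both groups.

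Syt3 encodes a calcium-binding synaptotagmin that is also found on the postsynaptic side. Its log2 CPM was 5.85, 5.37, 5.80, 5.39 and 4.91 in the Late SAFit2 mice, and from 5.32 to 6.64 with a median of 6.47 in Late Vehicle mice. All 5 SAFit2 mice lay below the Vehicle mean, and 1 Vehicle mouse, mouse 6, lay within the range of the SAFit2 mice. The difference was -0.75 (SE 0.22, 1.69-fold lower, limma adjusted p = 0.0361, exact permutation p = 0.0281). Limma voom on the recovered reads called 0 members lower, so Syt3 did not pass there. With only the libraries compared, 0 of all genes tested passed in late mice. In early mice Syt3 went the other way without passing the threshold (0.30, SE 0.22), and the early minus late difference of 1.06 (SE 0.31) had a limma adjusted p of 0.12.

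Both calls were sensitive to single mice. Leaving out Late SAFit2 mouse 2, 4 or 5, or Late Vehicle mouse 1, 3, 4 or 5, removed both, with limma adjusted p up to 0.103 for Stxbp6 and 0.107 for Syt3. The loss was not particular to these genes: 1 to 8 of all 16765 genes tested passed in these fits, against 2021 with all mice. Stxbp6 stayed between 0.40 and 0.60 and Syt3 between -0.93 and -0.61. Without Late Vehicle mouse 6, 20 members passed, against 29.7% of all genes in the same fit. Without Late SAFit2 mouse 1 it was 14 members, against 21.1%, and without Late Vehicle mouse 2 it was 11, against 22.6%.

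The coding sequences of both genes show the difference in base composition to which the next result refers. The first 90 coding bases are given with G and C in capitals, from GENCODE M21 transcripts on GRCm38. Stxbp6 lies on chromosome 12 from 44852484 to 45075118, minus strand, with its first coding base at 45019620. Syt3 lies on chromosome 7 from 44382773 to 44400030, plus strand, with its first coding base at 44385971.
Stxbp6: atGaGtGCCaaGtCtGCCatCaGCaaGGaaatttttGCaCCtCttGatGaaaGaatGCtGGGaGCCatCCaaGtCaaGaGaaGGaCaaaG
Syt3: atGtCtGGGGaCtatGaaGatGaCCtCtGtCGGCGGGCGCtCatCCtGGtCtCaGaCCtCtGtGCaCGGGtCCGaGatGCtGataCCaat
G and C make up 41 of the 90 bases shown (45.6%) in Stxbp6 and 51 (56.7%) in Syt3. Over the whole coding sequence they make up 47.5% and 59.4%, and over the longest transcript 42.92% and 59.23%.

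Among the 60 members, the late difference followed the GC content of the transcript. Of 31 members under 50% GC, 25 had a log2 fold change above 0, and all 12 with a nominal p under 0.05 were higher in Late SAFit2 mice. Of 29 members at 50% GC or over, 25 had a log2 fold change below 0, and all 7 with a nominal p under 0.05 were lower. The same counts over all genes in each GC range are not given here, so these counts have no background. Across the 60 genes Pearson's r between GC content and late log2 fold change was -0.75 and Spearman's rho -0.76. Over the 16213 genes tested with a known GC content they were -0.61 and -0.68. In early mice the members gave 0.16 and 0.16. With GC content taken from the coding sequence alone, r was -0.55 in late mice. These are correlations across genes of the same libraries and carry no test.

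The libraries themselves differed in this trend. The slope of log2 CPM on GC content, relative to the mean of all libraries and per 10 points of GC, ran from -0.475 to -0.053 in Late SAFit2 mice and from -0.321 to 0.490 in Late Vehicle mice. Of the Late Vehicle mice, mice 2 and 6 had a slope below 0. After correction of each library for GC content and length, 0 of 60 members and 0 of 16213 genes passed in the late comparison with limma, and 6 members had a nominal p under 0.05. Stxbp6 was then at 0.25 (SE 0.10, adjusted p = 0.204) and Syt3 at -0.21 (SE 0.13, adjusted p = 0.448). The correction also takes away any part of an effect of SAFit2 that follows GC content, and these cannot be told apart here.

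**Figure D2:**
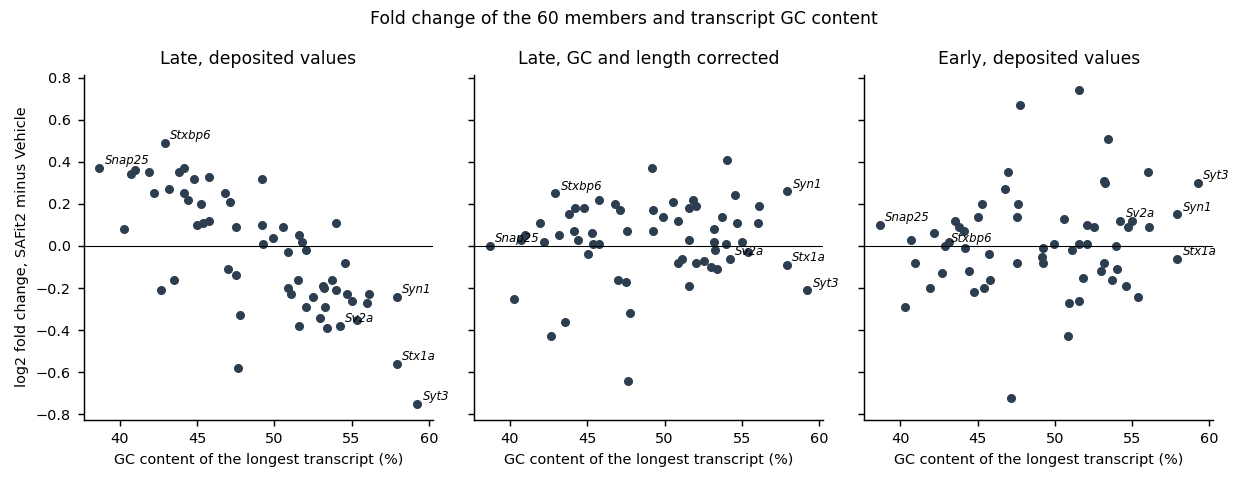
Log2 fold change of the 60 members (y axis) against GC content of the longest transcript in percent (x axis), for late mice, for late mice after GC and length correction, and for early mice; each point is 1 gene. The late values fall with GC content (r = -0.75), the early values gave r = 0.16, and Stxbp6 moves from 0.49 to 0.25 with the correction.

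The neuronal release core was read as 7 genes: Syt1, Snap25, Vamp2, Cplx1, Syn1, Sv2a and Rab3a. In late mice none of the 7 passed the threshold, with 5 below and 2 above 0 and a median of -0.24, and by limma 1 was nominally higher (Snap25) and 1 nominally lower (Sv2a). Snap25, the plasma membrane SNARE that is cut by botulinum toxin A, had log2 CPM of 11.61, 11.80, 11.70, 11.82 and 11.80 in Late SAFit2 mice and 11.18 to 11.66 (median 11.33) in Late Vehicle mice. Only the lowest SAFit2 mouse and the highest Vehicle mouse overlapped. The difference was 0.37 (SE 0.13, limma adjusted p = 0.0561), and it was 0.00 after GC correction and 0.10 when the correction used the longest protein-coding transcript, since the longest Snap25 transcript is a retained intron. Limma voom on the recovered reads placed Snap25 past the threshold (0.37, adjusted p = 0.0472).

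Sv2a, the vesicle protein that binds the drug levetiracetam, went the opposite way. Its log2 CPM was 9.03, 8.46, 8.67, 8.57 and 8.44 in Late SAFit2 mice and 8.63 to 9.23 (median 9.07) in Late Vehicle mice. Only SAFit2 mouse 1 lay above the Vehicle mean. The difference was -0.38 (SE 0.14, limma adjusted p = 0.0564), or -0.06 after GC correction. Across the 11 late mice Snap25 and Sv2a were inversely related (Pearson's r = -0.91, Spearman's rho = -0.89), while Snap25 and Vamp4 moved together (r = 0.93, rho = 0.95). These correlations were computed after the values were seen, and the points share their library and its GC trend.

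Of the other core genes, Syt1, the main calcium sensor of fast release, was at 8.53 ± 0.28 (SD, n = 5) in Late SAFit2 and 8.41 ± 0.19 (SD, n = 6) in Late Vehicle mice. Vamp2 was at 8.11 ± 0.27 and 8.32 ± 0.10, where Late SAFit2 mouse 1 (8.54) was the highest and the other 4 lay between 7.84 and 8.17. Rab3a was at 8.65 ± 0.25 and 8.91 ± 0.32, and Syn1 at 8.38 ± 0.21 and 8.62 ± 0.24. In each of these genes the groups overlapped, and the limma adjusted p was between 0.148 and 0.541. For Syn1 and Rab3a, Late Vehicle mouse 6 was the lowest Vehicle mouse, and without it both genes were among the 20 members that passed.

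**Figure D3:**
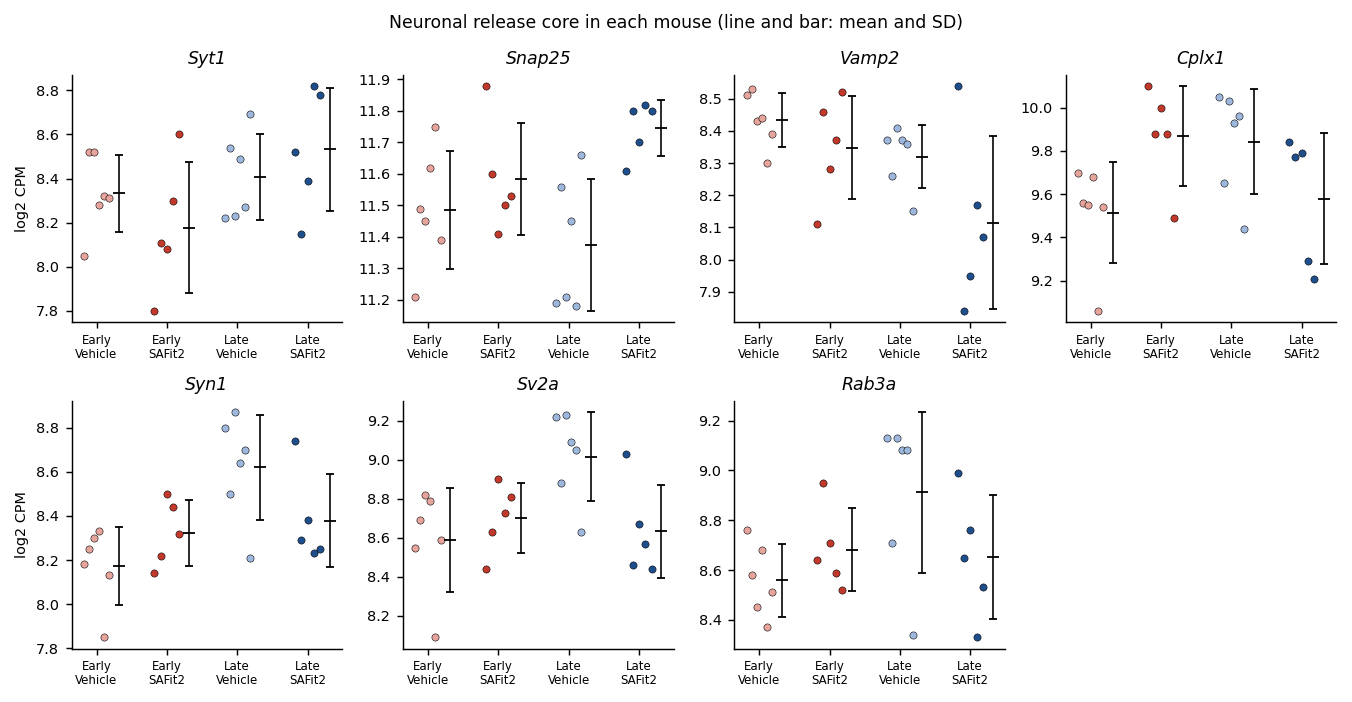
Log2 CPM (y axis) of the 7 neuronal release genes in each of the 22 mice by group; points are mice, the line and bar beside them the group mean and SD. Snap25 sits between 11.61 and 11.82 in Late SAFit2 mice and between 11.18 and 11.66 in Late Vehicle mice, and Early Vehicle mouse 5 is the low point of Cplx1 (9.06).

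By family, the limma share with a nominal p under 0.05 in late mice was 71.4% for Stxbp, 25.0% for Syt and 28.6% for Stx. Over all genes tested it was 34.5% (15.6% higher and 19% lower). After GC correction 6 of the 60 members had a nominal p under 0.05. In the Stxbp family (median 0.32) 5 members were above 0 with a nominal p under 0.05: Stxbp6, Stxbp3 (0.36), the tomosyns Stxbp5 (0.25) and Stxbp5l (0.35), which bind syntaxin and keep Vamp out, and Stxbp4 (0.32). The GC content of these 5 was 40.97% to 44.80%. Of the 16 synaptotagmins 11 were below 0 (median -0.15), and Syt13 (-0.29) and Syt7 (-0.23) were nominally lower besides Syt3, whereas Syt4 (0.34) was nominally higher. Among the 14 syntaxins 7 were above and 7 below 0. The endosomal Stx7 (0.27) and Stx12 (0.25) were nominally higher, and the neuronal Stx1a (-0.56, SE 0.20, adjusted p = 0.0605) and Stx6 of the trans-Golgi network (-0.23) nominally lower by limma.

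Stx7 and Stxbp5 were the 2 members whose late groups did not overlap (3.33%, against 1.71% of all genes tested). Stx7 was at 7.12 to 7.24 in Late SAFit2 mice and at 6.65 to 7.12 in Late Vehicle mice, so that the groups touched at 2 decimals. Stxbp5 was at 6.46 to 6.64 and at 6.06 to 6.45. Neither passed the threshold (limma adjusted p = 0.0642 and 0.106).

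In the smaller families a few genes had the lowest p. Vamp4, a SNARE of the trans-Golgi network and of bulk endocytosis, was at 6.30, 6.49, 6.47, 6.65 and 6.79 in Late SAFit2 mice and 5.89 to 6.65 (median 6.02) in Late Vehicle mice (0.37, SE 0.14, limma adjusted p = 0.0659). Rab3c was at 8.48, 8.48, 8.46, 8.83 and 8.71 against 8.03 to 8.66 (0.35, SE 0.14, adjusted p = 0.0886). In both, all 5 SAFit2 mice were above the Vehicle mean and the groups overlapped. Syn1 (-0.24) and Syn2 (-0.16) were below 0 and Syn3 (0.20) above, and Sv2b (0.25) lay opposite to Sv2a. Cplx1 and Cplx2, the complexins of neurons, were at -0.27 (SE 0.15) and -0.16 (SE 0.11). Snap23, which replaces Snap25 outside neurons, was at 0.08 (SE 0.18), and Snap29 and Snap47 at 0.33 and -0.24.

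**Figure D4:**
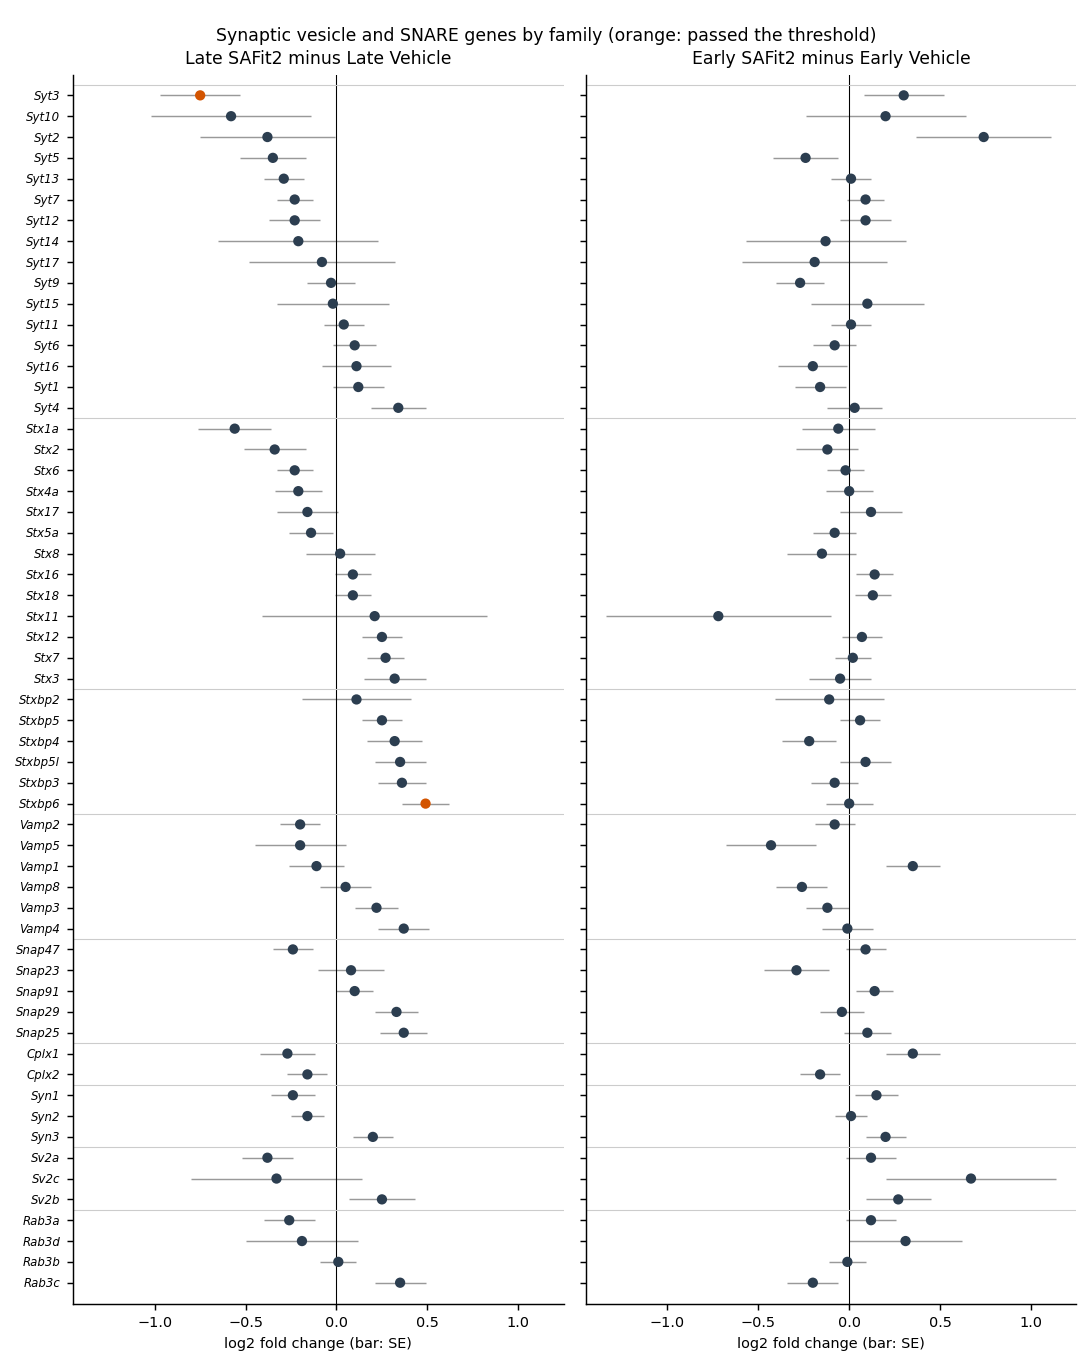
Log2 fold change of the members (x axis, bars are SE, 2 members left out) for Late SAFit2 minus Late Vehicle and for Early SAFit2 minus Early Vehicle, with genes on the y axis grouped by family; orange points passed the threshold. Only Syt3 (-0.75) and Stxbp6 (0.49) in late mice are orange.

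The next comparison asked whether SAFit2 around the onset of MIA had left a change that could still be measured on day 30. No member passed the threshold in early mice, and neither did any other gene tested (0%, lowest limma adjusted p = 0.665). Limma voom on the recovered reads also called 0 members. At a nominal p under 0.05 the members counted 3 of 60, against 2.48% of all genes tested (2 higher, against 0.942%, and 1 lower, against 1.54%), and their median log2 fold change was 0.009, beside 0.007 over all genes tested. Without Early SAFit2 mouse 1 or Early Vehicle mouse 5 this count was 0, and without Early SAFit2 mouse 2 it was 10, against 4.59% of all genes. Cplx1 was nominally higher: 10.10, 9.88, 10.00, 9.88 and 9.49 in Early SAFit2 mice against 9.06 to 9.70 (median 9.56) in Early Vehicle mice. Only SAFit2 mouse 5 lay within the Vehicle range. The difference was 0.35 (SE 0.15), and 0.26 without Early Vehicle mouse 5. Vamp1, a vesicle SNARE of spinal cord and of the neuromuscular junction, was at 10.34, 10.10, 10.26, 10.25 and 9.86 against 9.42 to 10.06, a difference of 0.35 (SE 0.15). Syt9 was at 3.85, 4.14, 4.28, 4.25 and 4.44 against 4.33 to 4.64, a difference of -0.27 (SE 0.13). No group pair of a member was without overlap in early mice, against 0.352% of all genes tested.

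In the core, 5 of 7 genes were above 0 in early mice (median 0.12), against 2 of 7 in late mice. The difference between the early and the late effect was tested directly, and timing of the gel and batch cannot be told apart in it. No member and no other gene passed (0%, lowest limma adjusted p = 0.12), and at a nominal p under 0.05 14 of 60 members counted, against 24.9% of all genes tested. Limma voom called 0, with 13 nominal. Among them were Syt3 (1.06), Cplx1 (0.62, SE 0.21) and Syt2 (1.11, SE 0.53). Without Late Vehicle mouse 6, 11 members passed this test, against 15% of all genes.

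As the mean of both timings, SAFit2 against Vehicle had a nominal p under 0.05 in 6 of 60 members, against 13.2% of all genes tested (4 higher, against 6.03%, and 2 lower, against 7.18%), and the lowest limma adjusted p over all genes was 0.301. Snap25 (0.23, SE 0.09), Stxbp6 (0.25, SE 0.09), Stxbp5l (0.22, SE 0.10) and Syn3 (0.20, SE 0.08) were above 0. Stx1a (-0.31, SE 0.14) and Syt5 (-0.29, SE 0.13) were below. Syn3 was the one of these with nearly the same value in both timings, 0.20 (SE 0.11) in each.

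Syt2 and Sv2c varied together from mouse to mouse, and this pair was singled out after their values were seen. Syt2 is the calcium sensor of fast inhibitory and brainstem synapses, and Sv2c the least widespread vesicle protein of its family. In Early Vehicle mice Syt2 ran from 4.26 to 7.06 (median 6.18) and Sv2c from 1.99 to 5.34 (median 4.35). The lowest value of both was in mouse 5, and the highest of both in mouse 3. In Early SAFit2 mice Syt2 was at 6.97, 5.31, 7.63, 6.79 and 7.0, and Sv2c at 5.25, 2.53, 6.09, 4.75 and 5.23, so that mouse 2 was lowest and mouse 3 highest in each.

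Across the 22 mice Pearson's r was 0.95 for Syt2 with Sv2c, and Spearman's rho was 0.92. Without the 2 mice farthest from the median of Syt2, r was 0.91. Within the 11 early mice r was 0.98, and within the 11 late mice 0.85. Slc6a5, the glycine transporter of inhibitory terminals, followed Syt2 as closely (r = 0.96, rho = 0.95, early mice 0.98, late mice 0.93), from 1.47 in Early Vehicle mouse 5 to 6.56 in Early SAFit2 mouse 3. Syt1 did not (r = -0.15 over 22 mice and -0.77 in late mice), nor did Chat, which marks cholinergic neurons (r = 0.44). For other genes of inhibitory neurons no correlation with Syt2 was computed, so Slc6a5 does not stand for inhibitory neurons at large. In Early Vehicle mouse 5 and Early SAFit2 mouse 3, Gad1 was nearly level, at 7.89 and 7.84. Gad2 was at 6.59 and 7.26 in these mice, and Slc32a1 at 6.62 and 7.68. Slc17a6, the vesicular glutamate transporter, gave r = 0.05 over 22 mice, 0.37 in early mice and -0.72 in late mice. The points share the library, and no p is given.

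The difference between groups in these genes was within the spread between mice. In early mice it was 0.74 (SE 0.37) for Syt2 and 0.67 (SE 0.47) for Sv2c. Without Early Vehicle mouse 5 they were 0.39 and 0.25, and without Early SAFit2 mouse 2 they were 1.10 and 1.23. In late mice they were -0.38 and -0.33. Early Vehicle mouse 5 was the lowest of the 22 mice in 12 of 60 members and the highest in 5, and the shares over all genes were not computed. It also had the most oligodendrocyte marker RNA, and the part of that in these values was not tested.

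**Figure D5:**
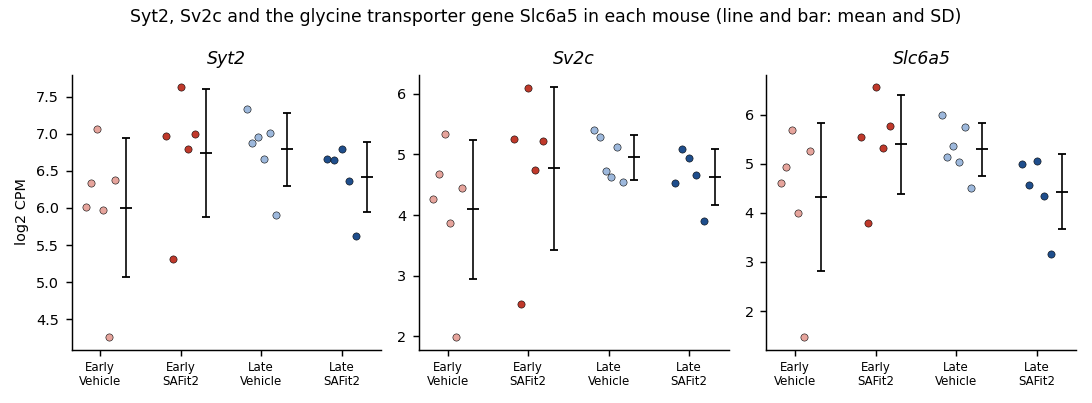
Log2 CPM (y axis) of Syt2, Sv2c and Slc6a5 in each of the 22 mice by group; points are mice, the line and bar beside them the group mean and SD. The lowest point of each panel is Early Vehicle mouse 5 (4.26, 1.99 and 1.47).

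The sequences before the start sites of Syt2 and Sv2c are shown because these genes moved together. They are the 250 bases upstream of a RefSeq start on GRCm38.p6 (read on the plus strand for Syt2 and the minus strand for Sv2c), with each GC box in capitals. Syt2 has 2 starts in RefSeq, and the window shown is chr1:134709050-134709299. The bases just after this window lie in 1 GENCODE transcript of Syt2, and those after the other window in 0. The Sv2c window is chr13:96132578-96132827.
Syt2: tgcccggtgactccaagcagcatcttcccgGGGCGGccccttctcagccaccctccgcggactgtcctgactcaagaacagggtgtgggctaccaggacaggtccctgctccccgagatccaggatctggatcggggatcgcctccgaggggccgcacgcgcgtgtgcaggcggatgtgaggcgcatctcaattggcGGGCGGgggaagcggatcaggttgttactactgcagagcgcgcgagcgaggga
Sv2c: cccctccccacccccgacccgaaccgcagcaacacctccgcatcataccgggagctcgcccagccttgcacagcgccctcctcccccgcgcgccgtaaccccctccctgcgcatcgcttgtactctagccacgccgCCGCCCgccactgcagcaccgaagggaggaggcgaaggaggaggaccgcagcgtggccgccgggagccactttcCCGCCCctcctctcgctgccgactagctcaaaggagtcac
Searched on both strands, the GC box (GGGCGG) was found 2 times in each, and 32.7% of the 32851 windows of this length hold at least 1. The cAMP response element (TGACGTCA) was in neither, and 1.5% of windows hold it. The E box (CANNTG) was found 1 time in Syt2 and 0 times in Sv2c, and 66.2% of windows hold it. These are matches of letters. GC made up 66.4% of the Syt2 window and 70.8% of the Sv2c window. At the other Syt2 start the window held 3 GC boxes, 0 cAMP response elements and 0 E boxes, with 76.0% GC.

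Other genes of the release machinery gave a background for the late comparison. Of 41 such genes tested (active zone, priming, recycling and transmitter loading), 8 passed the threshold, which is 19.5% against the 12.1% of all genes tested. The 7 lower genes were Rims4 (-1.32), Ppfia3 (-0.61), Slc32a1 (-0.55), Sncb (-0.52), Syngr1 (-0.48), Syngr3 (-0.37) and Napa (-0.32). Pclo, the active zone scaffold, was higher (0.31, SE 0.10, limma adjusted p = 0.0437). Nsf, which unwinds used SNARE complexes, was at -0.13 (SE 0.12), and Syp at -0.19 (SE 0.10). Of 17 SNAREs and SNARE regulators named outside these families, Bet1, of traffic between endoplasmic reticulum and Golgi, was higher (0.70, SE 0.18, adjusted p = 0.0331), and no other passed. After GC correction 0 of 16213 genes passed in the late comparison, so none of either list did. Without Late SAFit2 mouse 2, 4 or 5 or Late Vehicle mouse 1, 3, 4 or 5, 1 to 8 of all genes passed. In early mice none of either list passed.

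Cell type markers were read in the same late comparison. Map2 (0.52) and Elavl4 (0.62) of 15 neuron markers were higher, with a list median of 0.01. Mal was higher of 8 oligodendrocyte markers (median 0.12), and Tnnt3 of 5 skeletal muscle markers (median 2.33). Cldn5 was lower of 5 endothelial markers (median -0.14), and Foxj1 and Rarres2 of 4 ependymal markers (median -0.82). None of 7 astrocyte (median 0.18), 6 microglia (median 0.25), 5 ganglion and Schwann cell (median -0.79) or 4 red cell markers (median -0.22) passed. These late calls carry the same limits as those of the lists above. In early mice no marker passed.

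Late and Early Vehicle mice differ in timing of the gel and in batch, which cannot be told apart. With this reservation, 6 of 60 members passed between them, against 9.11% of all genes tested (3 higher, against 3.29%, and 3 lower, against 5.82%). Cell type markers moved in the same comparison, and their part in the result was not tested. Of 7 astrocyte markers, all were above 0 and Slc1a2 (0.46), Gja1 (0.47) and Aldoc (0.59) passed, and their summed level was 4562 to 5835 CPM in Early Vehicle and 6429 to 6859 CPM in Late Vehicle mice. Of 15 neuron markers, Tubb3 was higher (0.68) and Snhg11 lower (-4.32), and the summed level was 6441 to 8551 and 7978 to 10411 CPM. Syn1 was at 7.85 to 8.33 (median 8.21) in Early Vehicle and 8.21 to 8.87 (median 8.67) in Late Vehicle mice, a difference of 0.45 (SE 0.11, limma adjusted p = 0.013). Sv2a (0.43, SE 0.13) and Snap47 (0.33, SE 0.10) were also higher in Late Vehicle mice. Stx16, a syntaxin of the trans-Golgi network, was lower (-0.43, SE 0.10, adjusted p = 0.00503), from 5.69 to 6.21 in Early and from 5.35 to 5.59 in Late Vehicle mice with no overlap. Stx3 (-0.62, SE 0.16) and Rab3c (-0.45, SE 0.14) were lower as well. Stx16 and Syn1 passed whichever of the 22 mice was left out. Without Early Vehicle mouse 5 or Late Vehicle mouse 1 they were the only 2 members left, and after GC correction 15 passed, against 18.3% of all genes. For Sv2a the late SAFit2 difference was -0.38, and both comparisons use the Late Vehicle mice.

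Some members share exon bases with a gene on the other strand: 32.3% of Stx18 (with Nsg1 and a predicted gene), 17.2% of Syt12, 14.5% of Syt4, 14.1% of Syn3 (with Timp3) and 11.6% of Snap47 (with Jmjd4). The library kit keeps the strand, but the strand setting of the counting is not given in the sources used here, so values of these genes could hold reads of their partner.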

How the data were processed

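Per the labels and methods, the authors trimmed reads with Trimmomatic, aligned them to mm10 with HISAT2, counted them per gene with featureCounts and scaled library sizes. The deposited values are log2 CPM with a floor of -3.154 for genes at 0 reads. Reads worked back from them were whole for 100% of values (tolerance 0.02 reads) and gave the depth, 11352989 to 24433349 reads per library. Mice with few reads for a gene carry more counting error, and 5 or 6 mice per group limit each mean. No sample column was left unused.

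Differences were tested in R 4.3.3 with limma 3.58.1 (group means, variance trend, Benjamini-Hochberg adjustment) on all 22 libraries and the 16765 genes with log2 CPM of at least -1 in 5 libraries. A call was an adjusted p under 0.05 and 1.2-fold, except a nominal p under 0.05 for the mean of both timings, as in the study. For members taken singly, exact permutation over all splits of the mice (two-sided, unadjusted) was added. The members, lists and tests were chosen with earlier results of these data known. Genes named in full were 7 core genes, members called, and the member of lowest p of each family in late and early mice. All others named for a value were picked after it was seen. Values of 2 other core members are not reported here.

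Transcript GC content and length (GENCODE M21, GRCm38) were known for 16699 genes (96.5%). A loess trend on both (span 0.5) was subtracted from each library in the GC correction. Alternatives were no filter, a stricter filter (log2 CPM of at least 1), a pseudocount of 1 CPM, median centring, limma voom, no variance trend, only the libraries compared, the replicate number as a block, GC correction with and without it, and leaving out each library. A correction on the longest protein-coding transcript was added after the data were seen. The fit was tested on simulated data. Tables and plots used Python 3.11.15, numpy 2.4.6, pandas 2.3.3 and matplotlib 3.10.9.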

Additional observations from a re-analysis of the deposited data

Results flagged for a closer look

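In 76 groups of 5 or 6 mice (19 genes in 4 groups), the gap of the lowest or highest mouse to its neighbour exceeded Dixon's critical value in 3, and chance gives about 1 in 20. Early Vehicle mouse 5 was low for Cplx1 (9.06). Early SAFit2 mouse 1 was low for Stx1a (3.61), and Late SAFit2 mouse 1 was high for Syn1 (8.74). All values are log2 CPM.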

How the results depend on the processing

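The 2 members called in late mice became 4 with the stricter filter (Snap25 and Sv2a added), 0 without a variance trend, 0 with only the libraries compared and 0 after GC correction (alone, with the replicate block, or on the protein-coding transcript). The share of all genes moved from 12.1% to 17.2% with the stricter filter and 0.37% without a variance trend. It was 0% with only the libraries compared and with each GC correction. Median centring gave 3, 2 higher and 1 lower, and limma voom 2, both higher (Stxbp6 and Snap25; Syt3 had an adjusted p of 0.0502), with 876 genes called in all. Leaving out 1 library gave 0 to 20: 0 without Late SAFit2 mouse 2, 4 or 5 or Late Vehicle mouse 1, 3, 4 or 5, 14 without Late SAFit2 mouse 1, 11 and 20 without Late Vehicle mouse 2 and 6, and 6 without Early Vehicle mouse 5. With a library left out the share of all genes ran from 0.00596% to 29.7%, and it was 17.4% without Early Vehicle mouse 5. The replicate block gave 7, against 18.8% of all genes. The numbers do not pair the mice (residual correlations -0.236 to 0.317, 2 of 10 pairs over 0.1). The late median of -0.026 moved to 0.028 with centring and to 0.042, 0.031 and 0.034 with the GC corrections, and lay between -0.104 and 0.005 with a library left out.

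No member was called in early mice under any alternative run, and the early median stayed between -0.012 and 0.03 with a library left out. The early minus late count was 0 throughout, and 0 to 11 with a library left out (11 without Late Vehicle mouse 6). The 6 overall members became 3 with GC correction and block, and 3 to 16 with a library left out (3 without Early SAFit2 mouse 1 or Late Vehicle mouse 5, 11 without Early Vehicle mouse 3, 4 or 5, 12 without Late SAFit2 mouse 1, 14 without Early SAFit2 mouse 2 or Late Vehicle mouse 2, and 16 without Late Vehicle mouse 6). For that mean of both timings, the share of all genes ran from 7.83% to 22.5% with a library left out. The 6 Vehicle members became 3 without a variance trend and with only the libraries compared, 15 with each GC correction, and 2 to 12 with a library left out (2 without Early Vehicle mouse 5 or Late Vehicle mouse 1, 3 without Late Vehicle mouse 3, 4 or 5, and 12 without Late Vehicle mouse 6). The Vehicle share of all genes was 8.11% without a variance trend and 7.18% with only the libraries compared. It was 17.7% to 18.8% with the GC corrections and 5.63% to 14.8% with a library left out. With a library left out, members with a nominal p under 0.05 numbered 11 to 28 in late mice (11 without Late Vehicle mouse 3, 28 without Late SAFit2 mouse 1 or Late Vehicle mouse 6), 0 to 10 in early mice and 9 to 21 for early minus late. The shares of all genes were 26% to 41.6%, 1.52% to 4.59% and 18.6% to 33.2%. Of 19 genes followed in the late comparison, 6 changed sign with GC correction (Cplx1, Rab3a, Snap23, Syn1, Syt9 and Vamp2), 7 on the protein-coding transcript (Syt1 and Vamp1 in place of Vamp2), 6 with GC correction and block (Snap25 in place of Rab3a), 1 with centring (Syt9) and 3 with a library left out (Snap23, Syt9 and Vamp1). In early mice Vamp4 changed sign with each GC correction and with the block, Stxbp6 with centring, and Stx1a, Stxbp6 and Vamp4 with a library left out. The 2 late calls, Stxbp6 and Syt3, kept their sign in late mice under each alternative run. Apart from what the construction of an alternative shows, the cause was not tested.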
